A study of Mus musculus with 56 samples.

Results

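Liver RNA of 8 AMLN DIO-MASH mice dosed with high-dose zalfermin was compared with that of 8 DIO-MASH vehicle mice, 16 of the 56 mice of the series, chosen by their treatment and diet labels. All were male C57BL/6J mice bought at 5 to 6 weeks of age and kept on AMLN diet (high in fat, with added fructose and cholesterol) for 36 weeks before dosing and also during it. Both groups therefore shared the diet, a baseline liver biopsy with 3 weeks of recovery, single housing, and selection for steatosis and fibrosis in that biopsy. Zalfermin was given at 0.2 mg/kg and vehicle was given alone, each under the skin once daily for 8 weeks. The paper reports that high-dose zalfermin mice ended with a lower body weight than vehicle mice and ate more early in dosing. The fit had no term for body weight or food intake, and their part in the values was not tested. Chow-fed vehicle mice, low-dose zalfermin mice (0.05 mg/kg) and high-dose semaglutide mice (120 ug/kg), 8 in each group, are used for reference.

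Zalfermin is a long-acting analog of FGF21, a hormone made mainly by the liver that acts through an FGF receptor paired with the co-receptor beta-Klotho. FGF21 is known for its effects on lipid handling, energy expenditure and insulin sensitivity, and part of its action on the liver runs through the brain and adipose tissue. DIO-MASH denotes diet-induced obesity with metabolic dysfunction-associated steatohepatitis, in which hepatocytes fill with fat while macrophages and collagen-producing stellate cells accumulate. A whole piece of liver was sequenced, so fewer cells of a type and less RNA per cell cannot be told apart in any of the values.

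Total reads on genes ranged from 7393654 to 16434379 in the DIO-MASH vehicle mice and from 6211126 to 17124553 in the high-dose zalfermin mice. Within a group, no pair of mice was alike to within sampling noise, so none was a repeated library. On the first principal component of the 16 mice, which held 55.7% of the variance, DIO-MASH vehicle mice lay between -14.1 and -4.09 and high-dose zalfermin mice between 6.75 and 21.9. Vehicle mouse 1 lay nearest to the treated mice and high-dose zalfermin mouse 6 farthest from the vehicle mice. Hepatocyte markers were abundant in both groups, with summed levels of 75099 to 97009 CPM (reads of a gene as a share of the normalized library total, on the usual per-million scale) in DIO-MASH vehicle mice and 93589.9 to 149472 CPM in high-dose zalfermin mice. Sample numbers fall into 4 series, and both groups had mice in 3 of them.

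High-dose zalfermin changed 2429 of the 14105 genes tested (17.2%), with 1205 higher (8.54%) and 1224 lower (8.68%) than in DIO-MASH vehicle (edgeR quasi-likelihood test, Benjamini-Hochberg adjusted p under 0.05). Falls were larger than rises. The median log2 fold change was 0.46 among genes that rose and -0.67 among genes that fell, against -0.02 over all genes tested. A change of 2-fold or more was seen in 129 genes that rose and 377 that fell, and a change of 4-fold or more in 23 and 86. The genes that rose also had the higher level, with a median of 58 CPM over the 16 mice against 13.2 CPM for those that fell. In 677 genes (4.8%) the 8 treated and the 8 vehicle mice did not overlap. Within the 3 series of sample numbers that held both groups, 2419, 2422 and 2401 of the 2429 genes had the same direction as in all mice. The 2429 genes were called from these same mice, so this agreement is not an independent test.

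**Figure D1:**
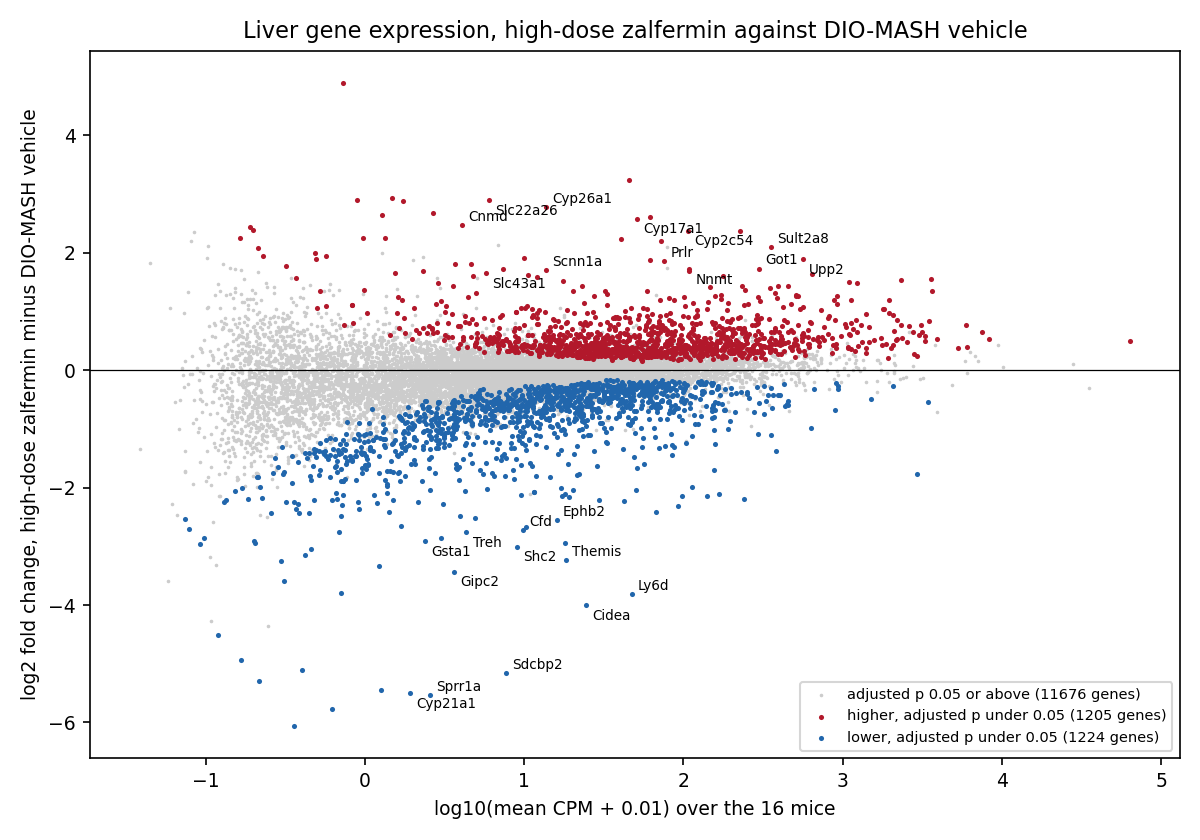
Each point is 1 of the 14105 genes tested, with its mean level over the 16 mice on the horizontal axis (log10 of CPM plus 0.01) and its log2 fold change, high-dose zalfermin minus DIO-MASH vehicle, on the vertical axis. The 1205 genes that rose are red, the 1224 that fell are blue, most of the genes with the largest changes and no overlap between mice are named, and the falls reach farther from 0 than most of the rises.

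Levels are given below as CPM, in the order lowest, median and highest of the 8 mice of a group. Fold changes are log2 values from the edgeR fit with their standard error (SE). Genes were sorted into lists by what they are known to do, and a gene is said to rise or fall only where it passed the test over all 14105 genes.

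Among the components through which FGF21 acts, the co-receptor gene Klb rose and the mouse gene for the hormone itself fell. Klb stood at 15.2, 26.1 and 34.9 CPM in DIO-MASH vehicle mice and at 32, 43 and 53.7 CPM in high-dose zalfermin mice (log2 fold change 0.78, SE 0.14, adjusted p = 8.00e-05). All but 1 of the treated mice lay above every vehicle mouse. Fgfr4, the FGF receptor most typical of hepatocytes, rose as well (log2 fold change 0.44, SE 0.12, adjusted p = 0.00718). The paper's introduction gives FGFR1, FGFR2 and FGFR3 as the receptors of FGF21, while its results include Fgfr4 among the receptors examined. The paper also reports a partial reversal of Fgfr4 and Klb with high-dose zalfermin. The genes Fgfr1, Fgfr2 and Fgfr3 did not pass the test. Fgf21 stood at 1.94, 2.78 and 6.33 CPM in DIO-MASH vehicle mice and at 0.121, 1.65 and 2.65 CPM in treated mice (log2 fold change -1.1, SE 0.40, adjusted p = 0.0478). The groups overlapped for Fgf21, and its call was lost in 10 of 23 alternative fits, which changed the tool, filter or covariate or left out 1 mouse. Without vehicle mouse 1 the log2 fold change was -0.91 (adjusted p = 0.127). Of 15 feedback and immediate early genes of the ERK pathway, which FGF receptors activate, 1 rose and none fell. The share called over all genes was 17.2%. The 1 that rose was Spry4, an inhibitor of that pathway (log2 fold change 1.06, SE 0.36, adjusted p = 0.0309), a call lost in 6 of the 23 alternative fits. When only both groups were fitted, 3 of the 15 rose and 1 fell. In the fits with the series as covariate or without vehicle mouse 1 or 5, 1 gene of the list fell. Zalfermin was given as a protein, so the Fgf21 reads come from the mouse gene.

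The genes of nitrogen disposal formed the most uniform group of rises. Of 27 genes of the urea cycle and amino acid catabolism, 25 rose and none fell, with a median log2 fold change of 0.96, and in 17 of them the 2 groups of mice did not overlap. Glud1 and Gpt2 were the 2 that did not pass (log2 fold changes 0.13 and -0.05). Cps1, which catalyses the first step of the urea cycle, stood at 1471, 1724 and 2647 CPM in DIO-MASH vehicle mice and at 4431, 4876 and 7086 CPM in high-dose zalfermin mice. Every treated mouse lay above every vehicle mouse, and the change was 2.95-fold (log2 fold change 1.56, SE 0.20, adjusted p = 1.01e-07). Chow-fed mice had a median of 4899.6 CPM. The later enzymes of the cycle rose by smaller amounts, from log2 fold change 1.27, SE 0.15, adjusted p = 1.27e-08 for Asl through log2 fold change 0.96, SE 0.17, adjusted p = 2.45e-05 for Ass1 and log2 fold change 0.89, SE 0.15, adjusted p = 1.23e-05 for Arg1 to log2 fold change 0.72, SE 0.14, adjusted p = 0.0001 for Otc.

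Enzymes that break down single amino acids rose alongside. Hpd, of tyrosine breakdown, stood at 1084, 1191 and 1354 CPM in DIO-MASH vehicle mice and at 2905, 3422 and 4739 CPM in treated mice (log2 fold change 1.54, SE 0.17, adjusted p = 2.99e-09). Its groups did not overlap, and the treated median lay above the chow-fed median of 3079 CPM. Gnmt, a methyltransferase of glycine that consumes the methyl donor S-adenosylmethionine, stood at 518, 631 and 873 CPM in vehicle mice and at 1381, 1773 and 2268 CPM in treated mice (log2 fold change 1.48, SE 0.18, adjusted p = 5.28e-08). It also did not overlap between the groups, and its treated median lay below the chow-fed median of 3451 CPM. Got1, the cytosolic aspartate aminotransferase, stood at 75.4, 134 and 195 CPM in vehicle mice and at 276, 447 and 687 CPM in treated mice, the largest change of the list (log2 fold change 1.73, SE 0.24, adjusted p = 3.59e-07). Gls2 (glutaminase), Cth (cystathionine gamma-lyase), Agxt (an aminotransferase of glyoxylate) and Tat (tyrosine aminotransferase) rose by 1.43, 1.15, 1.42 and 1.14 on the log2 scale. Summed over the 27 genes, levels were 11631 to 15207 CPM in DIO-MASH vehicle mice and 22967 to 35356 CPM in treated mice, without overlap.

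**Figure D2:**
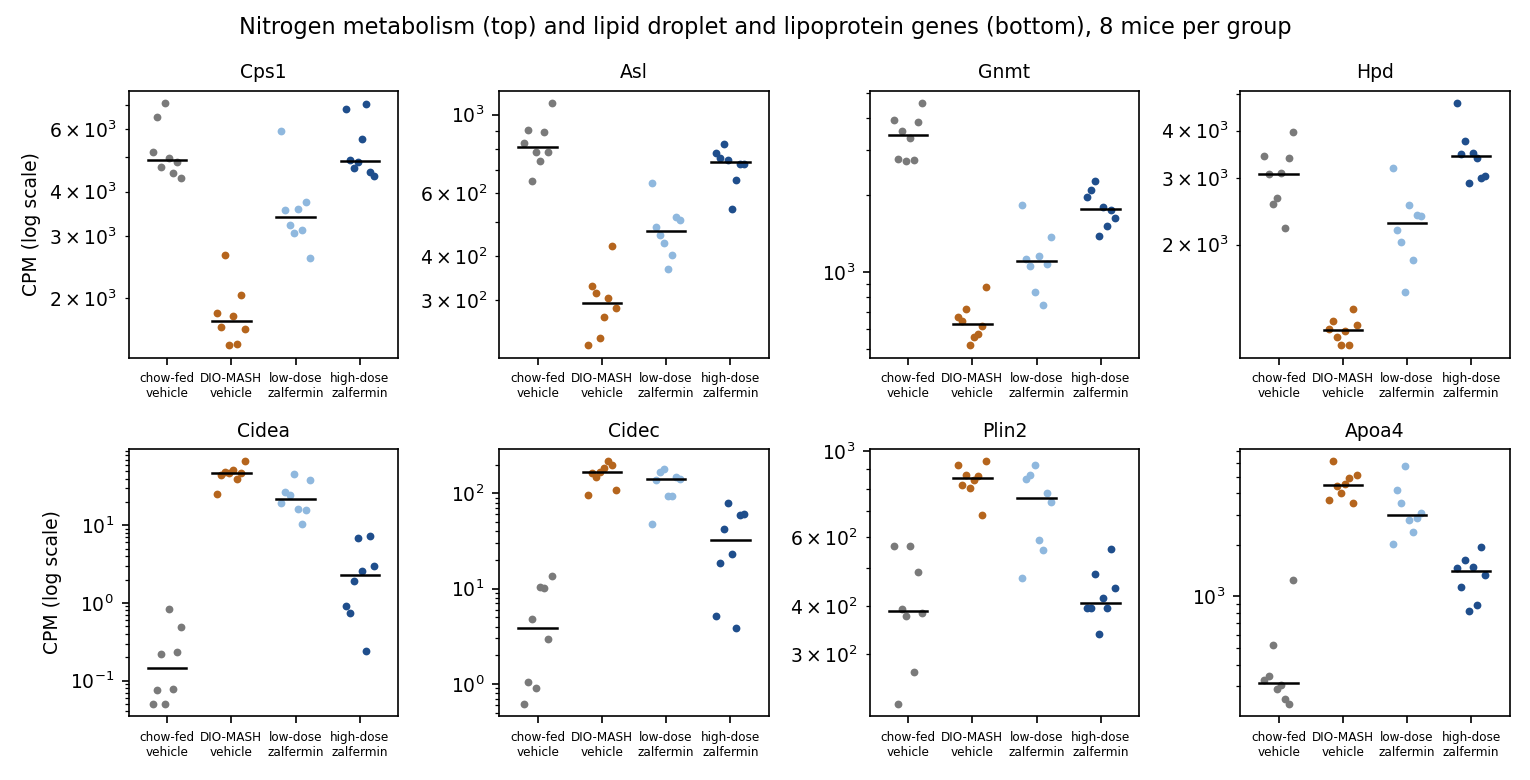
Each panel shows 1 gene, with the level of each of 8 mice per group in CPM on a log scale, the group median as a line, and a level of 0 drawn at 0.05. High-dose zalfermin mice lie above all DIO-MASH vehicle mice for Cps1, Asl, Gnmt and Hpd and below all of them for Cidea, Cidec, Plin2 and Apoa4.

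Periportal hepatocytes, which surround the incoming portal vessels, carry most of the urea cycle, and 10 of 13 periportal genes rose, none fell, and the median was 1.04. This list shares genes with the urea cycle list. Pck1, the rate-controlling enzyme of glucose production, stood at 397, 1266 and 1495 CPM in vehicle mice and at 1269.9, 2224 and 3532 CPM in treated mice (log2 fold change 1.04, SE 0.28, adjusted p = 0.00539). Vehicle mouse 7, at the low end, lay far from the other vehicle mice, and without it the change was 0.91 on the log2 scale (adjusted p = 0.0151). Of 14 pericentral genes, expressed around the central vein, 5 rose and none fell, with a median of 0.35. These were Cyp1a2, Oat, Slc1a2, Cyp2e1 and Gulo. Glul and Axin2 were among the pericentral genes that did not pass the test (log2 fold changes 0.17 and -0.12).

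Genes that coat lipid droplets or move fatty acids into them fell. Of 16 genes of the lipid droplet and of PPARG targets, 9 fell, none rose, and the median was -0.63. Their summed level was 1949 to 2293 CPM in DIO-MASH vehicle mice and 819.9 to 1454 CPM in treated mice, without overlap. Cidea, a droplet protein that fuses droplets and is scarce in the liver of lean mice, stood at 25.3, 47.2 and 67 CPM in vehicle mice and at 0.243, 2.27 and 7.28 CPM in treated mice. All treated mice lay below all vehicle mice, 16-fold lower in the fit (log2 fold change -4.0, SE 0.44, adjusted p = 2.66e-09), and the chow-fed median was 0.147 CPM.

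The related droplet gene Cidec stood at 96, 166 and 218 CPM in vehicle mice and at 3.89, 32.5 and 78.5 CPM in treated mice (log2 fold change -2.14, SE 0.43, adjusted p = 0.000212). The treated mice were spread widely for Cidec, but none reached the lowest vehicle mouse. The perilipins Plin4 (log2 fold change -2.2, SE 0.40, adjusted p = 5.65e-05) and Plin2 (log2 fold change -0.98, SE 0.15, adjusted p = 4.53e-06) fell too, and the treated median of Plin2, 407 CPM, lay close to the chow-fed median of 388 CPM. Mogat1, an enzyme of triglyceride synthesis induced in fatty liver, fell by 1.8 on the log2 scale (SE 0.27). Pparg, which encodes the transcription factor of fat storage, stood at 22.9, 27.2 and 34.7 CPM in vehicle mice and at 8.38, 18.4 and 21.3 CPM in treated mice (log2 fold change -0.72, SE 0.16, adjusted p = 0.000931). Its groups did not overlap either. The fatty acid binding protein gene Fabp4 (-1.43) and the fatty acid transporter gene Cd36 (-0.56) fell on the log2 scale, while the droplet lipase gene Pnpla2 (-0.11) and Plin5 (-0.20) did not pass the test.

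In the reported fit, the enzymes that make fatty acids did not fall with the droplet genes. Of 17 genes of de novo lipogenesis 3 rose and none fell, with a median of 0.25. That share is near the 17.2% of all genes called in either direction and above the 8.54% that rose. The 3 were Dgat2, which makes triglyceride (log2 fold change 0.51, SE 0.11, adjusted p = 0.000401), Mlxipl, which encodes the sugar-sensing factor ChREBP (log2 fold change 0.65, SE 0.15, adjusted p = 0.0019), and the desaturase gene Fads1 (log2 fold change 0.40, SE 0.13, adjusted p = 0.0277), whose call was lost in 7 of the 23 alternative fits. In the fits without treated mouse 7, vehicle mouse 5 or low-dose semaglutide mouse 6, 1 gene of the list fell. The same number fell when only both groups were fitted. Scd1, Fasn and Acaca, central lipogenic enzymes, did not pass the test, with log2 fold changes of -0.29, -0.14 and -0.06. Of 20 genes of fatty acid oxidation and ketogenesis, 2 rose and 1 fell, also near the share of all genes called, and the median was 0.09. Ppargc1a, a coactivator of mitochondrial genes, rose without overlap, from 5.69, 8.64 and 12.1 CPM in vehicle mice to 12.7, 14.7 and 18.5 CPM in treated mice (log2 fold change 0.79, SE 0.17, adjusted p = 0.000543). Cyp4a14, a fatty acid omega-hydroxylase with close relatives among which reads may be split, rose (log2 fold change 1.12, SE 0.34, adjusted p = 0.0147), and Pdk4, a brake on glucose oxidation, fell (log2 fold change -1.11, SE 0.32, adjusted p = 0.011). Cpt1a, the gate of mitochondrial fatty acid entry, had a log2 fold change of 0.00 and did not pass.

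Of 22 genes of cholesterol synthesis and uptake, 8 rose and none fell, with a median of 0.26. With 1 mouse left out 5 to 9 rose, and it was 5 without treated mouse 5, treated mouse 7 or vehicle mouse 5. Msmo1 and Sc5d, of the later steps, rose by 0.77 and 0.54 on the log2 scale. Sqle, which adds oxygen to squalene, had a log2 fold change of -0.45 and did not pass.

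Lipoprotein genes rose in 9 of 18 cases, and 1 fell. That 1 was Apoa4, an apolipoprotein that rises with liver fat, at 3508, 4468 and 6150.2 CPM in DIO-MASH vehicle mice and 823, 1399 and 1929.9 CPM in treated mice. Treated mice all lay below the vehicle mice (log2 fold change -1.76, SE 0.26, adjusted p = 2.20e-06), and chow-fed mice had a median of 314 CPM. Apom, an apolipoprotein of HDL (log2 fold change 0.91, SE 0.12, adjusted p = 1.41e-07), and Lcat, which esterifies cholesterol in HDL (log2 fold change 0.64, SE 0.11, adjusted p = 3.58e-05), were among those that rose. The sterol exporters Abcg5 and Abcg8, which pump cholesterol into bile, rose by 0.65 (SE 0.22) and 0.89 (SE 0.25) on the log2 scale, and the call of Abcg5 was lost in 8 of the 23 alternative fits.

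Bile acid synthesis rose at several steps. Of 14 genes, 9 rose and none fell, the median was 0.46, and their summed level was 2735 to 3211 CPM in DIO-MASH vehicle mice against 4367 to 5049 CPM in treated mice, without overlap. Cyp7a1, the rate-limiting enzyme of the classical route, stood at 69.8, 158 and 262 CPM in vehicle mice and at 168, 389 and 531 CPM in treated mice (log2 fold change 1.13, SE 0.35, adjusted p = 0.02). Mice of the groups overlapped, with 5 treated mice above all vehicle mice. Akr1d1, a reductase of the steroid nucleus, separated the groups fully, at 57.6, 92 and 132 CPM in vehicle mice and 193, 227 and 262 CPM in treated mice (log2 fold change 1.26, SE 0.17, adjusted p = 4.39e-07). Cyp7b1, of the alternative route, Cyp8b1, which sets cholic acid output, and Slc27a5, which activates bile acids for conjugation, rose by 0.93, 0.80 and 0.79 on the log2 scale. The call of Cyp8b1 was lost in 12 of the 23 alternative fits and that of Cyp7a1 in 2, among them the fit without vehicle mouse 4.

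Among bile acid and organic anion transporters, 3 of 13 tested rose and 4 fell. The genes that rose take up bile acids and organic anions from blood. Slc10a1, the main bile acid uptake transporter, stood at 243, 321 and 359.9 CPM in vehicle mice and at 603, 776 and 842 CPM in treated mice, without overlap (log2 fold change 1.26, SE 0.14, adjusted p = 2.64e-09), and Slco1a4 rose too (log2 fold change 1.2, SE 0.22, adjusted p = 6.29e-05). The genes that fell were the exporters Abcc3, Abcc4 and Slc51b, all on the blood side of the cell, and Abcb4, which moves phospholipid into bile. Abcc3 and Abcc4 fell by 0.64 (SE 0.14) and 0.68 (SE 0.23) on the log2 scale, and the call of Abcc4 was lost in 9 of the 23 alternative fits. Slc51b had 160 reads in all 8 vehicle mice and 24 in all 8 treated mice.

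Of 18 cytochrome P450 genes and their regulators, 12 rose and 2 fell, with a median of 0.64. Cyp26a1, which degrades retinoic acid and is a classical target of the retinoic acid receptor, stood at 1.52, 2.48 and 9.41 CPM in vehicle mice and at 9.92, 20.4 and 53.8 CPM in treated mice, without overlap (log2 fold change 2.78, SE 0.55, adjusted p = 0.000186). The chow-fed median was 18.1 CPM. The sequence upstream of its start is shown because it holds a retinoic acid response element, in capitals. The element is the DR5 repeat, AGTTCA or AGGTCA, repeated after 5 bases, and was searched on both strands. Of 27025 RefSeq promoters (250 bases upstream), 9 (0.0333%) held it. The stretch lies at chr19:37697558-37697797 on the plus strand of GRCm38.p6.
Cyp26a1: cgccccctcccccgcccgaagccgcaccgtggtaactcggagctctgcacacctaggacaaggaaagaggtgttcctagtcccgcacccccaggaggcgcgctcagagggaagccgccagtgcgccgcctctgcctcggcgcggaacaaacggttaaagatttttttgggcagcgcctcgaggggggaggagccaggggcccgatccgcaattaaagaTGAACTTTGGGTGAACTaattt

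Cyp1a2 and Cyp2e1, which metabolise drugs, rose by 1.25 and 0.66 on the log2 scale, each without overlap between the groups. Cyp3a11, the main drug-metabolising member of its family in mice, stood at 3395, 4145 and 5034 CPM in vehicle mice and at 1073, 3043 and 3696 CPM in treated mice, and fell (log2 fold change -0.55, SE 0.16, adjusted p = 0.0149). The groups overlapped for Cyp3a11, and treated mouse 6 lay far below the other treated mice. In the wider retinoid list, 3 of 17 genes rose and 2 fell, with Rbp4, the blood carrier of retinol, rising without overlap (log2 fold change 0.59, SE 0.10, adjusted p = 8.15e-06).

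Genes that are more active in female than in male mouse liver rose, although all mice were male. Of 19 female-biased genes tested, 10 rose and none fell, with a median of 1.12. Of 19 male-biased genes tested, 3 rose and 2 fell, with a median of -0.04. Many genes of both lists belong to families of near-identical copies, among which reads may be split, so single values are uncertain. Slc22a26, an organic anion transporter, had the largest rise among genes without overlap, from 0.582, 1.07 and 2.95 CPM in vehicle mice to 4.33, 9.12 and 24.4 CPM in treated mice (log2 fold change 2.9, SE 0.51, adjusted p = 3.53e-05). The mean of Slc22a26 was 13.5 CPM in chow-fed males, above the mean of 10.7 CPM in treated mice. Cyp17a1, a steroid hydroxylase, stood at 7.11, 10.9 and 27 CPM in vehicle mice and at 50.1, 74.8 and 147 CPM in treated mice, without overlap (log2 fold change 2.58, SE 0.37, adjusted p = 8.92e-07). Chow-fed males had a median of 9.83 CPM for Cyp17a1.

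Cyp2b9 stood at 0.691, 4.27 and 33.5 CPM in vehicle mice and at 12.4, 51 and 199 CPM in treated mice (log2 fold change 3.24, SE 0.76, adjusted p = 0.00161), and Cyp2b13 at 0.235, 0.594 and 1.66 and 0.936, 3.14 and 12.8 CPM (log2 fold change 2.69, SE 0.57, adjusted p = 0.000508). Both were spread widely in each group, and vehicle and treated mice overlapped. On the male-biased side, Cyp4a12a (log2 fold change -1.98, SE 0.38, adjusted p = 0.000124) and Cyp4a12b (log2 fold change -2.04, SE 0.42, adjusted p = 0.00033) fell. Mup3 rose (log2 fold change 1.35, SE 0.32, adjusted p = 0.00202), as did Mup2 and Mup11, which are major urinary protein genes of a large cluster. The call of Mup11 was lost in 12 of the 23 alternative fits.

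Growth hormone sets much of the sex difference of the liver, and 6 of 15 genes of its axis and of IGF signaling rose and 1 fell. Igf1, the hormone made by liver on growth hormone action, rose by 0.45 on the log2 scale (SE 0.12), and Ghr, the growth hormone receptor gene, by 0.44 (SE 0.12). Igfbp2, a binding protein of IGF, stood at 199.8, 257 and 496 CPM in vehicle mice and at 569.8, 697 and 939 CPM in treated mice (log2 fold change 1.28, SE 0.16, adjusted p = 3.89e-08). No treated mouse overlapped a vehicle mouse for Igfbp2, and chow-fed mice had a median of 857 CPM. Igfbp3 fell (log2 fold change -0.95, SE 0.19, adjusted p = 0.000211). Cux2, a repressor of male genes, passed the test (log2 fold change 2.25), but 141 of its 201 reads in treated mice were from mouse 2, and without that mouse the change was 0.84 (adjusted p = 0.496).

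**Figure D3:**
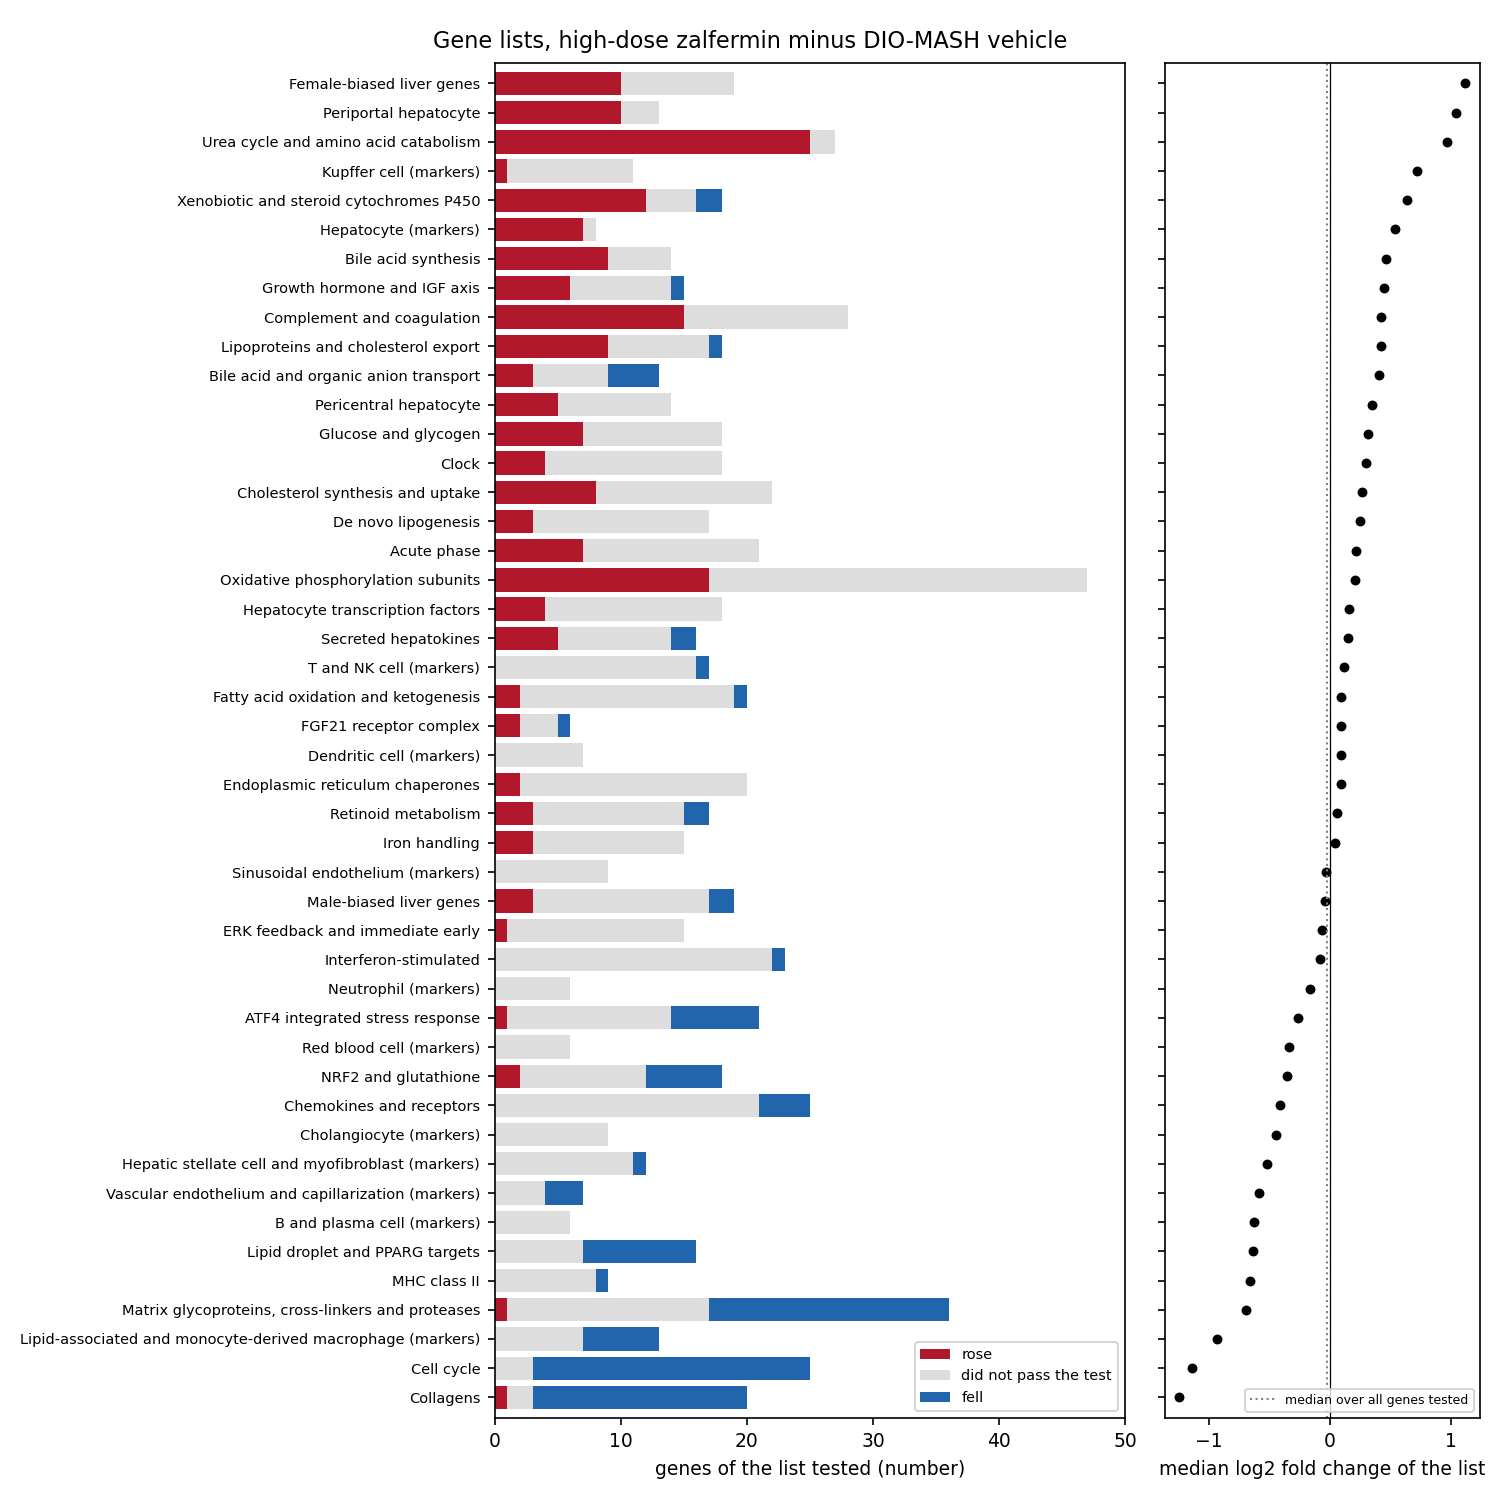
The left panel gives, for each gene list with 6 or more genes tested, how many genes rose (red), did not pass the test (grey) and fell (blue). The right panel gives the median log2 fold change of the list beside the median over all genes (dotted). Urea cycle genes (25 of 27 rose), collagens (17 of 20 fell) and cell cycle genes (22 of 25 fell) have the largest shares called, against 17.2% of all genes.

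Collagen genes fell together. Of 20 tested, 17 fell and 1 rose, the median was -1.25, and in 10 the groups did not overlap. Col1a1, a chain of the main fibrous collagen of scar tissue, stood at 123, 284 and 344 CPM in DIO-MASH vehicle mice and at 19.6, 67.8 and 82.1 CPM in treated mice (log2 fold change -2.12, SE 0.38, adjusted p = 5.15e-05). Vehicle mouse 1 was the lowest of its group for Col1a1 and treated mouse 6 the lowest of its own, and without either the log2 fold change was -2.22 or -1.98. Col3a1, of the same fibers, stood at 256, 417 and 507 CPM in vehicle mice and at 53.1, 90.6 and 103 CPM in treated mice (log2 fold change -2.19, SE 0.32, adjusted p = 1.09e-06). Groups were fully apart for both, and chow-fed medians were 10.2 CPM for Col1a1 and 25.6 CPM for Col3a1, below the treated medians. The basement membrane chain Col4a1 fell by 1.13 (SE 0.23) on the log2 scale. Col18a1, which hepatocytes make as well, was the 1 collagen that rose (log2 fold change 0.36, SE 0.09, adjusted p = 0.00228).

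Of 36 genes of other matrix proteins, cross-linkers and proteases, 19 fell and 1 rose, with a median of -0.69. The 1 that rose was Fn1, a plasma protein of hepatocytes (log2 fold change 0.43, SE 0.12, adjusted p = 0.00696). Lox, which cross-links collagen, stood at 2.25, 3.32 and 5.01 CPM in vehicle mice and at 0.243, 0.631 and 1.96 CPM in treated mice, without overlap (log2 fold change -2.24, SE 0.42, adjusted p = 9.11e-05). Timp1, an inhibitor of matrix proteases, stood at 3.49, 5.9 and 8.98 CPM in vehicle mice and at 0.607, 1.56 and 3.09 CPM in treated mice, again without overlap (log2 fold change -1.86, SE 0.36, adjusted p = 0.000154). Eln (elastin), Postn (periostin) and Sparc fell by 2.12, 2.08 and 1.26 on the log2 scale.

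The markers of the cells that make this matrix were lower in level, but few passed the test. Of 12 markers of stellate cells and myofibroblasts 1, Rgs5, fell (log2 fold change -0.69, SE 0.22, adjusted p = 0.0247), and its call was lost without treated mouse 3 (adjusted p = 0.0668) and without vehicle mouse 1. When only DIO-MASH vehicle and high-dose zalfermin mice were fitted, 7 of the 12 fell, and 4 fell without low-dose semaglutide mouse 6. In DESeq2, with a stricter filter and with the series as covariate 3 fell in each case. With 1 mouse of the groups compared left out, 0 to 2 fell. All 12 had negative log2 fold changes, with a median of -0.52, and their summed level was 491 to 639 CPM in DIO-MASH vehicle mice and 236 to 441 CPM in treated mice, without overlap. Acta2, the marker of activated stellate cells, had a log2 fold change of -0.73 and did not pass. Whether stellate cell number has a part in the collagen values was not tested.

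**Figure D4:**
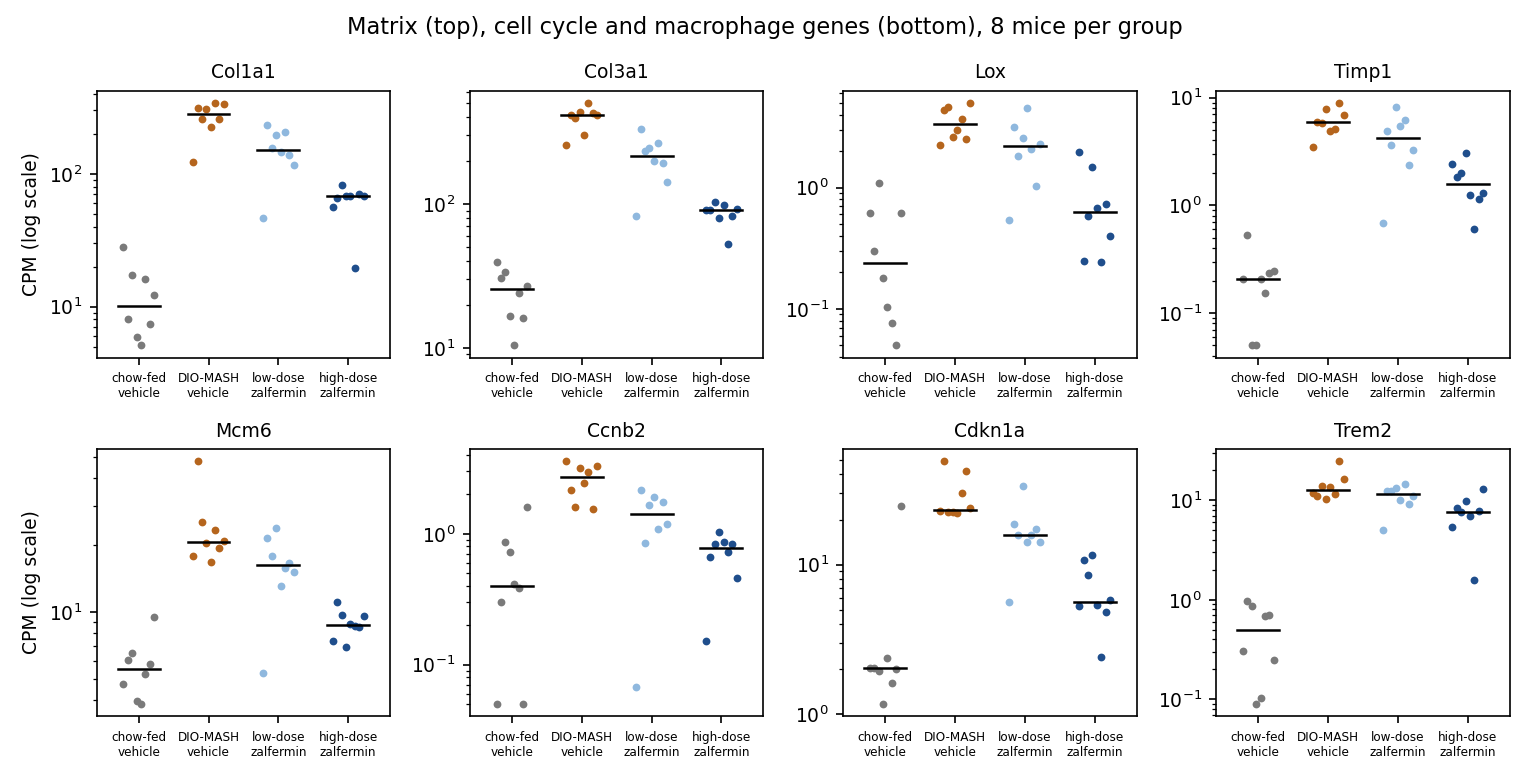
Each panel shows 1 gene, with the level of each of 8 mice per group in CPM on a log scale, the group median as a line, and a level of 0 drawn at 0.05. Treated mice lie below all DIO-MASH vehicle mice for Col1a1, Col3a1, Lox, Timp1, Mcm6, Ccnb2 and Cdkn1a, and 7 of 8 treated mice do so for Trem2.

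Cell cycle genes fell as a group. Of 25 tested, 22 fell and none rose, the median was -1.14, and their summed level was 326 to 509 CPM in DIO-MASH vehicle mice and 177 to 259 CPM in treated mice, without overlap. Mcm6, a subunit of the helicase that opens DNA for replication, stood at 16.8, 20.6 and 47.7 CPM in vehicle mice and at 6.92, 8.71 and 11.1 CPM in treated mice (log2 fold change -1.43, SE 0.28, adjusted p = 0.000158). Vehicle mouse 2 was the highest, and without it the log2 fold change was -1.21 (adjusted p = 0.00121). Mcm5, of the same helicase, fell by 1.24 (SE 0.31) on the log2 scale. Ccnb2, a cyclin of mitosis, stood at 1.55, 2.71 and 3.59 CPM in vehicle mice and at 0.151, 0.781 and 1.03 CPM in treated mice (log2 fold change -1.89, SE 0.50, adjusted p = 0.00509), which is 275 reads in all vehicle mice and 57 in all treated mice. Cdk1, its kinase partner, fell by 1.14 (SE 0.29), and Mki67, which marks cells in cycle, by 1.27 (SE 0.33).

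The cell cycle inhibitor Cdkn1a, a p53 target, fell rather than rose, from 22.2, 23.3 and 49.1 CPM in vehicle mice to 2.43, 5.61 and 11.6 CPM in treated mice, without overlap (log2 fold change -2.11, SE 0.50, adjusted p = 0.00195). Ccnd1, a cyclin of entry into the cycle, fell by 0.91 (SE 0.27). Pcna, Tyms and Rrm2 did not pass the test, with log2 fold changes of -0.07, -0.25 and -0.56.

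Promoters of 3 of the genes that fell are shown because they hold the elements that the cell cycle uses to time transcription. Of the 22 cell cycle genes that fell, 17 had a RefSeq promoter of the same name. The CCAAT box (CCAAT), searched on both strands of the 250 upstream bases, was present in 14 of the 17, against 34.5% of 27025 promoters. The CHR element (TTTGAA) was present in 5 of the 17, against 16.3%, and an E2F site (TTTGGCGC, TTTCGCGC, TTTCCCGC or TTTGCCGC) in 4 of the 17, against 1.91%. Sites of 1 kind may overlap on opposite strands, as the first pair of E2F sites of Mcm5 and of Mcm6 do. A match describes the sequence and does not show binding. The capitals below mark the CCAAT boxes and CHR element of Ccnb2 and the E2F sites and CCAAT boxes of Mcm5 and Mcm6. The stretches lie at chr9:70421555-70421804 (minus strand), chr8:75109259-75109508 (plus strand) and chr1:128359706-128359955 (minus strand) of GRCm38.p6.
Ccnb2: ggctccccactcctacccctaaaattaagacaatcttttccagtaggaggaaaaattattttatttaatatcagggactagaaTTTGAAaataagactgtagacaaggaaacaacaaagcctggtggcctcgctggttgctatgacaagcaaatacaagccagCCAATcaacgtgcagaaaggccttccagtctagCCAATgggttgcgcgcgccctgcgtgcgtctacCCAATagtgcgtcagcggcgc
Mcm5: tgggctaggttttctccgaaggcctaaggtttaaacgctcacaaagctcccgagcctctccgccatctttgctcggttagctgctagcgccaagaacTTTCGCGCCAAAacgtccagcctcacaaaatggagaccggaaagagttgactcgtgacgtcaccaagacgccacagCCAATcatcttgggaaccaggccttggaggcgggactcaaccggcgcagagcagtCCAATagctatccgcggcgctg
Mcm6: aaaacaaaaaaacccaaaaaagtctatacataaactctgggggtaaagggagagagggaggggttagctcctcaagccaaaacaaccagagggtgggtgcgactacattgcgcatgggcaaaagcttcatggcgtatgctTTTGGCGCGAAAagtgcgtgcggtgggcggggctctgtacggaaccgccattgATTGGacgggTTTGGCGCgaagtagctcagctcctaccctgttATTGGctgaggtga

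Inflammatory genes fell in a selective way. Of 13 markers of lipid-associated and monocyte-derived macrophages, which are scarce in healthy liver, 6 fell, none rose, and the median was -0.93. Their summed level was 687 to 1196 CPM in DIO-MASH vehicle mice and 230.0 to 677 CPM in treated mice, without overlap. Mmp12, a macrophage elastase, stood at 18.2, 32.1 and 57.7 CPM in vehicle mice and at 0.972, 10.9 and 14.8 CPM in treated mice, without overlap (log2 fold change -1.79, SE 0.36, adjusted p = 0.000243). Treated mouse 6 was by far the lowest, and without it the log2 fold change was -1.62. Trem2, the receptor that defines lipid-associated macrophages, stood at 10.2, 12.6 and 24.6 CPM in vehicle mice and at 1.58, 7.67 and 13 CPM in treated mice (log2 fold change -0.88, SE 0.32, adjusted p = 0.0473), and its call was lost in 12 of the 23 alternative fits. Lgals3 (galectin-3) and Itgax (CD11c) fell by 1.22 (SE 0.36) and 1.0 (SE 0.32) on the log2 scale.

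Kupffer cell markers, those of the resident macrophages, showed no common direction. Of 11 tested 1, Clec4f, passed the test, and it rose (log2 fold change 0.93, SE 0.32, adjusted p = 0.0345), a call lost in 9 of the 23 alternative fits. When only both groups were fitted, 3 of the 11 fell, and without vehicle mouse 1, 3 rose. Cd163, Marco and Timd4 had positive log2 fold changes of 2.0, 1.87 and 1.27 without passing, and C1qa, C1qb and C1qc negative ones between -0.46 and -0.38. Of 25 chemokines and receptors 4 fell, which were Cxcl14 (-1.81), Ccl2 (-1.22), Ccr2 (-0.95) and Cx3cr1 (-0.86) on the log2 scale. That share is near the 17.2% of all genes called in either direction. The interferon-stimulated genes had a median of -0.08, and 1 of 23, Usp18, fell (-0.79). Of 9 genes of MHC class II presentation all had negative log2 fold changes, between -0.79 and -0.21, and 1, the protease gene Ctss, passed (log2 fold change -0.70, SE 0.25, adjusted p = 0.0418). Its call was lost in 9 of the 23 alternative fits, whereas 7 of the 9 genes fell when only DIO-MASH vehicle and high-dose zalfermin mice were fitted.

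Themis stood apart from the lymphocyte genes. Themis, known from T cell development, stood at 19.8, 32 and 47.9 CPM in DIO-MASH vehicle mice and at 1.82, 2.99 and 5.37 CPM in treated mice, 9.36-fold lower without overlap (log2 fold change -3.23, SE 0.39, adjusted p = 2.58e-08). Of the other 16 T cell and NK cell genes tested, 0 passed in edgeR or in DESeq2, and 0 had an unadjusted p under 0.05. Cd3e, Cd3d, Cd3g, Cd4 and Cd8a, which define T cells, had log2 fold changes of 0.15, -0.14, -0.02, 0.33 and 0.30. Chow-fed mice had a median of 1.54 CPM for Themis.

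Among marker lists of other cells, none of 9 sinusoidal endothelial, 9 cholangiocyte, 7 dendritic cell, 6 neutrophil, 6 B cell and 6 red blood cell genes tested passed in edgeR or in DESeq2, and 1 of these 43 had an unadjusted p under 0.05. Of 7 genes of larger vessels and capillarization, 3 fell, namely Plvap, Sox18 and Vwf (log2 fold changes -0.55, -0.59 and -0.60), and 1 fell without treated mouse 1 or 6. Hepatocyte markers rose in 7 of 8 cases, Alb (albumin) by 0.49 (SE 0.14) and Hnf4a, which encodes a master factor of hepatocytes, by 0.64 (SE 0.14). The summed hepatocyte levels given above overlapped between groups. Adipoq, Lep, Retn and Plin1, which define adipocytes, were under the filter on low counts, as were all 5 skeletal muscle genes and 6 of 7 exocrine pancreas genes.

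The 15 genes with the largest falls had low levels in chow-fed liver, with medians from 0 to 2.31 CPM, against medians from 2.68 to 77.1 CPM in DIO-MASH vehicle mice. Sprr1a, a protein of the cornified skin barrier, had 542 reads in all 8 DIO-MASH vehicle mice and 8 in all 8 treated mice, or 2.07, 4.78 and 8.07 CPM against 0, 0.0736 and 0.302 CPM (log2 fold change -5.53, SE 0.78, adjusted p = 6.39e-07). Cyp21a1, a steroid 21-hydroxylase of the adrenal gland with a near-identical pseudogene, had 399 and 6 reads (log2 fold change -5.51, SE 0.73, adjusted p = 2.22e-07). These treated levels rest on few reads, and the size of the fall is therefore uncertain. Sdcbp2 (syntenin-2) stood at 3.22, 15.8 and 21.5 CPM in vehicle mice and at 0, 0.246 and 0.936 CPM in treated mice (log2 fold change -5.16, SE 0.83, adjusted p = 7.02e-06). Vehicle mouse 1 was the lowest of its group for Sdcbp2 and still above all treated mice. Ly6d, a surface protein of epithelia and lymphocytes, stood at 42.8, 77.1 and 165 CPM in vehicle mice and at 3.98, 5.83 and 10.6 CPM in treated mice (log2 fold change -3.81, SE 0.55, adjusted p = 9.35e-07).

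Other genes of the 15 largest falls were signaling and adhesion genes. Ephb2, a receptor of ephrins, stood at 16.2, 30.4 and 35.4 CPM in vehicle mice and at 1.34, 5.31 and 7.63 CPM in treated mice (log2 fold change -2.55, SE 0.39, adjusted p = 3.59e-06). Shc2, an adaptor of receptor tyrosine kinases, and Fam83a fell by 3.01 and 2.94, and Gipc2, Insyn1 and Cntnap1 by 3.43, 2.85 and 2.68 on the log2 scale. Cfd, which encodes complement factor D or adipsin, stood at 9.82, 12.6 and 28.6 CPM in vehicle mice and at 0.754, 1.99 and 7.18 CPM in treated mice (log2 fold change -2.73, SE 0.56, adjusted p = 0.000354). The remaining 2 were Treh, which splits trehalose, and Gsta1, a glutathione transferase with close relatives, at -2.75 and -2.92. Means of Gsta1 were 4.21 CPM in vehicle mice and 0.56 CPM in treated mice, both below its mean of 5.19 CPM in chow-fed mice. Its chow-fed median was no higher than 2.31 CPM, so some of the chow-fed mice carried that mean.

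The largest rises held several receptors and transporters. Lepr, the leptin receptor, stood at 5.68, 14.3 and 24.3 CPM in DIO-MASH vehicle mice and at 41.3, 66 and 97.1 CPM in treated mice, without overlap (log2 fold change 2.24, SE 0.33, adjusted p = 1.76e-06). Its chow-fed median was 3.27 CPM, below the vehicle median. Prlr, the prolactin receptor, stood at 12.2, 36.3 and 49.4 CPM in vehicle mice and at 52.8, 107 and 203 CPM in treated mice (log2 fold change 1.86, SE 0.29, adjusted p = 5.63e-06). Scnn1a, a subunit of the epithelial sodium channel, and Slc43a1, an amino acid transporter, rose by 1.7 and 1.65 on the log2 scale. Cnmd (chondromodulin) had 134 reads in all vehicle mice and 598 in all treated mice (log2 fold change 2.48, SE 0.34, adjusted p = 4.63e-07).

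Of the enzymes among the largest rises, Nnmt, which methylates nicotinamide, stood at 26.5, 48 and 75.5 CPM in vehicle mice and at 128, 147 and 275 CPM in treated mice (log2 fold change 1.72, SE 0.32, adjusted p = 8.35e-05). Upp2, a uridine phosphorylase, stood at 132, 209.9 and 474 CPM in vehicle mice and at 499, 846 and 1245 CPM in treated mice (log2 fold change 1.89, SE 0.36, adjusted p = 0.000108). Neither gene showed overlap between the groups. Cyp2c54, Rdh16f2, Sult2a8 and Mup2 rose by 2.38, 2.21, 2.1 and 1.81 on the log2 scale, and each belongs to a family of close copies, so these values are uncertain.

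Mitochondrial and secretory genes rose by small amounts. Of 47 genes of oxidative phosphorylation subunits, 17 rose, none fell and all 47 had positive log2 fold changes, with a median of 0.20. Sdhb, a subunit of complex II, stood at 148, 168 and 191 CPM in vehicle mice and at 213, 225 and 266 CPM in treated mice (log2 fold change 0.44, SE 0.09, adjusted p = 0.000571). Without treated mouse 1, 10 of the 47 rose, and without vehicle mouse 6, 11. The 2 groups did not overlap for Sdhb, although the change was 1.35-fold. Of 28 complement and coagulation genes, 15 rose and none fell, among them F7 (log2 fold change 1.19, SE 0.14, adjusted p = 1.75e-08) and Plg, which encodes plasminogen (log2 fold change 0.77, SE 0.11, adjusted p = 7.73e-07). Of 21 acute phase genes 7 rose and none fell (4 rose without vehicle mouse 2, 4 or 6, and 3 fell when only the 2 groups were fitted), but Saa1, Saa2 and Lcn2 had log2 fold changes of -0.54, -0.61 and -1.21 without passing.

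Stress programs fell in part. Of 21 targets of the integrated stress response factor ATF4, 7 fell and 1 rose, and Psat1, an enzyme of serine synthesis, fell without overlap (log2 fold change -1.67, SE 0.36, adjusted p = 0.000648). Asns, asparagine synthetase, fell from a low level (0.252, 1.05 and 2.14 CPM in vehicle mice and 0.0569, 0.269 and 0.729 CPM in treated mice, log2 fold change -1.85). The 1 that rose was Vldlr, the VLDL receptor (0.61), whose call was lost in 7 of the 23 alternative fits. Of the ATF4 targets, 3 fell without treated mouse 6 and 4 without vehicle mouse 1. Of 20 endoplasmic reticulum chaperone genes 2 rose and none fell, and Hspa5, the main chaperone, had a log2 fold change of 0.00. Of 18 genes of the NRF2 antioxidant response 6 fell and 2 rose, with Srxn1 (log2 fold change -1.15, SE 0.17, adjusted p = 1.30e-06), Gstm3 (log2 fold change -2.15, SE 0.34, adjusted p = 7.02e-06) and Nfe2l2, the gene of NRF2 itself (log2 fold change -0.41, SE 0.10, adjusted p = 0.00366), among those that fell. Nqo1, a commonly used NRF2 target, did not pass (log2 fold change -0.52).

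Of 16 hepatokines, hormones that the liver secretes, 5 rose and 2 fell. Ahsg, or fetuin-A, stood at 3994, 4317 and 5047 CPM in vehicle mice and at 5574, 7343 and 9748 CPM in treated mice, without overlap (log2 fold change 0.76, SE 0.11, adjusted p = 2.27e-06). Enho, the gene of adropin, rose (log2 fold change 1.61, SE 0.32, adjusted p = 0.000175). Inhbe, which encodes the subunit of activin E, fell without overlap, from 47, 53.7 and 85.2 CPM in vehicle mice to 20.8, 30.3 and 42.7 CPM in treated mice (log2 fold change -0.93, SE 0.23, adjusted p = 0.00299). Gdf15, a stress hormone, fell (log2 fold change -0.86, SE 0.30, adjusted p = 0.0415), a call lost in 8 of the 23 alternative fits.

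High-dose zalfermin was also tested directly against 2 other treated groups. Against low-dose zalfermin, 260 of 14105 genes (1.84%) differed, 63 higher (0.447%) and 197 lower (1.4%) with high-dose zalfermin. This count was sensitive to single mice, from 109 without low-dose zalfermin mouse 4 to 494 without low-dose zalfermin mouse 1. Genes lower at the high dose included Cidea (log2 fold change -3.08, SE 0.43, adjusted p = 3.57e-05), Themis (log2 fold change -2.44, SE 0.39, adjusted p = 0.000213), Ly6d (log2 fold change -2.97, SE 0.54, adjusted p = 0.00124), Sdcbp2 (log2 fold change -3.78, SE 0.84, adjusted p = 0.00804) and Sprr1a (log2 fold change -4.77, SE 0.80, adjusted p = 0.00041). For Cidea, low-dose mice lay at 10.5, 21.8 and 45.4 CPM, between the vehicle and high-dose medians. Genes higher at the high dose included Cyp2b9 (log2 fold change 3.05, SE 0.76, adjusted p = 0.0207), Cyp2b13 (log2 fold change 2.34, SE 0.56, adjusted p = 0.0161), Slc22a26 (log2 fold change 1.93, SE 0.48, adjusted p = 0.0211) and Fmr1nb (log2 fold change 4.04, SE 1.07, adjusted p = 0.0323). Of these, Fmr1nb lost its call in 9 of 23 alternative fits, Cyp2b9 in 3, Slc22a26 in 2 and Cyp2b13 in 1.

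Lars2, a mitochondrial leucyl-tRNA synthetase, also passed this test (log2 fold change 1.62, SE 0.36, adjusted p = 0.00874), but 1 mouse carried the value. High-dose zalfermin mouse 4 stood at 7890.5 CPM and the other 7 mice between 536 and 828 CPM, and without mouse 4 the change was 0.44 (adjusted p = 0.384). The call was lost against DIO-MASH vehicle as well (0.33, adjusted p = 0.343).

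Against high-dose semaglutide, an analog of GLP-1, 63 of 14105 genes (0.447%) differed, 19 higher and 44 lower with high-dose zalfermin. The number ranged from 25 to 119 when single mice of the groups were left out, the lowest without high-dose semaglutide mouse 7 and the highest without high-dose semaglutide mouse 3. The study's methods leave out an outlying low-dose semaglutide mouse that the labels do not mark, so every mouse entered the fit and its shared estimate of spread. Mouse 6 of that group was left out as an alternative because of an earlier analysis of these data, and 119 genes then differed. Got1 (log2 fold change 1.31, SE 0.23, adjusted p = 0.00303), Nnmt (log2 fold change 1.3, SE 0.32, adjusted p = 0.0372), Acmsd (log2 fold change 1.22, SE 0.25, adjusted p = 0.00659), Tmem266 (log2 fold change 1.46, SE 0.30, adjusted p = 0.00802) and Cyp2b13 (log2 fold change 2.32, SE 0.56, adjusted p = 0.0335) were the 5 that were highest with zalfermin relative to semaglutide among genes that averaged at least 1 CPM. Got1 stood at 131, 181 and 241 CPM in high-dose semaglutide mice, below the lowest high-dose zalfermin mouse. Cidea (log2 fold change -2.87, SE 0.43, adjusted p = 0.00014), Themis (log2 fold change -1.94, SE 0.39, adjusted p = 0.00506), Sdcbp2 (log2 fold change -3.36, SE 0.84, adjusted p = 0.047), Shc2 (log2 fold change -1.96, SE 0.48, adjusted p = 0.0385) and Fam83a (log2 fold change -1.72, SE 0.40, adjusted p = 0.0273) were the 5 of these that were lowest relative to semaglutide. The calls of 5 of the 10 genes were lost in part of 23 alternative fits, namely Sdcbp2 in 13, Shc2 in 11, Cyp2b13 in 9, Nnmt in 8 and Fam83a in 6. The doses of the 2 agents are not matched, and both groups are compared with the same DIO-MASH vehicle mice, so the values are given side by side. Against DIO-MASH vehicle, 66 genes (0.468%) changed with low-dose zalfermin, of which 59 (0.418%) were higher and 7 (0.0496%) lower, and 343 (2.43%) changed with high-dose semaglutide.

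**Figure D5:**
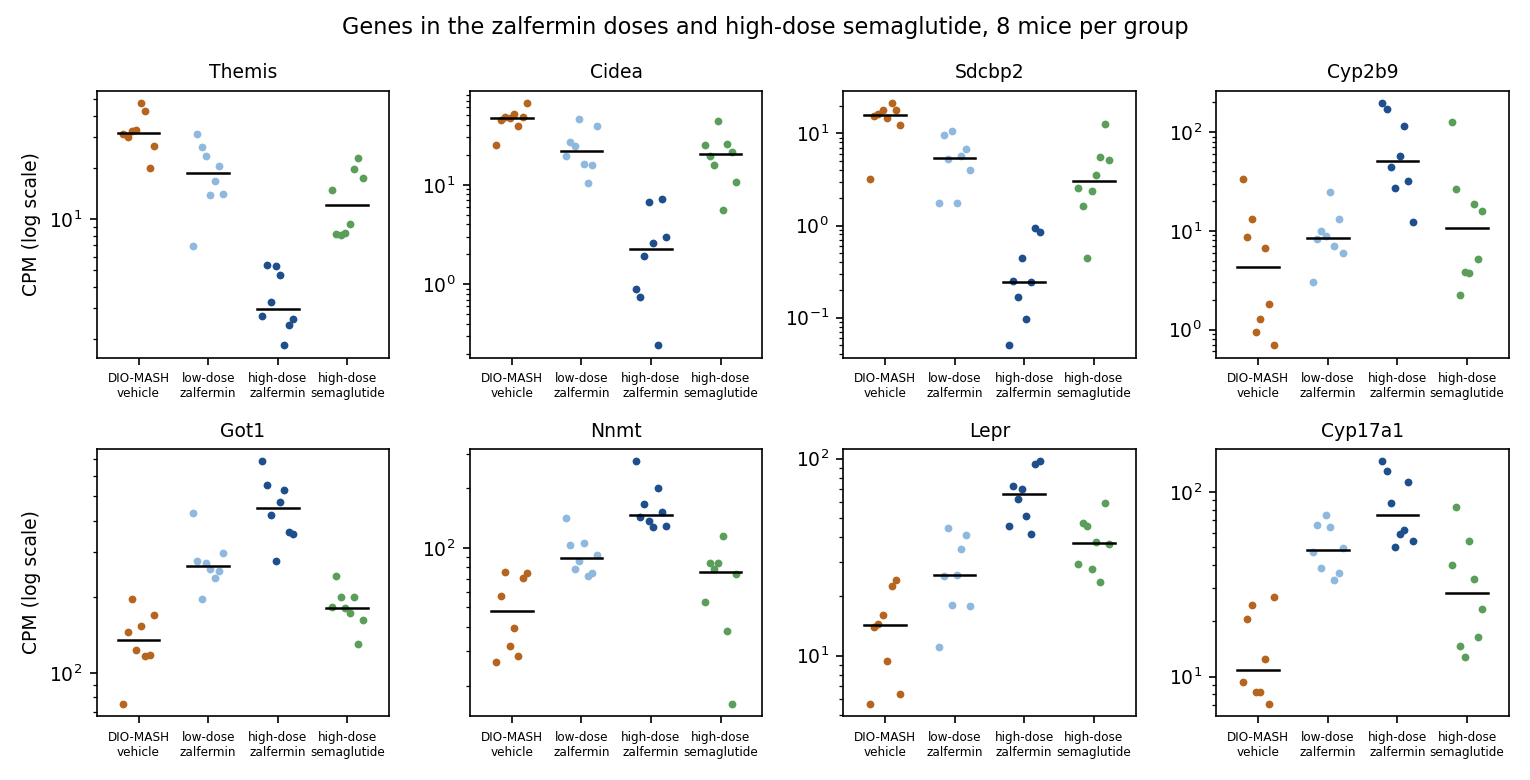
Each panel shows 1 gene, with the level of each of 8 mice per group in CPM on a log scale, the group median as a line, and a level of 0 drawn at 0.05. High-dose zalfermin mice have the lowest median of the 4 groups for Themis, Cidea and Sdcbp2 and the highest for Cyp2b9, Got1, Nnmt, Lepr and Cyp17a1.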

How the data were processed

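Liver RNA was sequenced in 56 mice, 8 in each of 7 groups, assigned by their labels. The authors deposited raw read counts of 21935 genes, without normalization. The study's methods name STAR with GRCm38, and the submitters' processing notes list Trim Galore 0.6.4 and Salmon 1.9.0. The counting program and its strand setting are not given in the sources used here, so overlapping genes may share reads. The fit took the 14105 genes that had at least 5 reads in at least 3 mice, and covered all 7 groups. It was made in edgeR 4.0.16 (R 4.3.3; TMM, quasi-likelihood, two-sided), without covariates, with Benjamini-Hochberg adjustment over all genes and a threshold of 0.05. CPM used normalized library sizes. Figures were drawn with matplotlib 3.10.9.

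Members and lists were chosen with earlier results of these data known. Named genes are the 15 largest rises and falls that had no overlap and averaged at least 1 CPM, the 3 smallest adjusted p of each of the 34 pathway and 16 marker lists, and the 5 largest differences each way in direct comparisons. Other genes of the lists were named for their role after their values were seen. In simulated counts with 200 of 14013 genes changed 2-fold for this comparison, edgeR recovered 92.5% with 5.61% false calls. The changed genes were drawn from those with more reads, and all groups otherwise shared the vehicle means. A far smaller share of genes changed than was called here, so these rates need not hold for the reported calls. The alternatives were DESeq2 1.42.0, its size factors, 2 filters, a series term, fewer groups and each mouse left out in turn. Those for list counts and for genes beyond the largest changes were added after seeing the data. Mice of a group are numbered in accession order. Other groups and endpoints of the study were not analysed here, and some genes chosen by these rules are not reported here.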

Additional observations from a re-analysis of the deposited data

Results flagged for a closer look

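In 296 groups of 8 mice (148 genes in DIO-MASH vehicle and in high-dose zalfermin), 1 mouse stood far from the others of its group in 33 cases. The gap to the next mouse on the log2 CPM scale, divided by the whole range of the group, was above Dixon's 95% critical value for 8 samples. Chance alone flags about 1 in 20 groups.

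In DIO-MASH vehicle mouse 7 this was Cnmd at 2.46 CPM (others 0.706 to 1.27 CPM), Pck1 at 397 CPM (others 1075 to 1495 CPM), Rbp4 at 3197 CPM (others 2355 to 2691 CPM) and Gstm3 at 134 CPM (others 203 to 292 CPM). In high-dose zalfermin mouse 5 this was Cyp21a1 at 0.386 CPM (others 0 to 0.121 CPM). In DIO-MASH vehicle mouse 1 this was Sdcbp2 at 3.22 CPM (others 12.4 to 21.5 CPM), Gipc2 at 1.55 CPM (others 4.35 to 8.73 CPM), Shc2 at 4.56 CPM (others 13 to 26 CPM), Treh at 3.65 CPM (others 5.95 to 9.07 CPM) and Col1a1 at 123 CPM (others 225 to 344 CPM). In high-dose zalfermin mouse 6 this was Shc2 at 0 CPM (others 0.909 to 3.22 CPM), Pparg at 8.38 CPM (others 15.2 to 21.3 CPM), Cd36 at 126 CPM (others 214 to 309 CPM), Cyp3a11 at 1073 CPM (others 2348 to 3696 CPM), Col1a1 at 19.6 CPM (others 55.8 to 82.1 CPM), Col1a2 at 28.3 CPM (others 70.1 to 106 CPM), Col3a1 at 53.1 CPM (others 79.8 to 103 CPM), Mmp12 at 0.972 CPM (others 6.18 to 14.8 CPM), Trem2 at 1.58 CPM (others 5.43 to 13 CPM), Lgals3 at 9.23 CPM (others 16.8 to 24.1 CPM) and Ctss at 67.4 CPM (others 108 to 149 CPM). In high-dose zalfermin mouse 4 this was Apom at 98.7 CPM (others 146 to 185 CPM), Plg at 2289.5 CPM (others 2819 to 3230.5 CPM) and Lars2 at 7890.5 CPM (others 536 to 828 CPM). In DIO-MASH vehicle mouse 8 this was Slc27a5 at 885 CPM (others 696 to 779.8 CPM), F2 at 1698 CPM (others 1422 to 1526 CPM) and Lars2 at 913 CPM (others 481 to 564 CPM). In high-dose zalfermin mouse 2 this was Cux2 at 11.7 CPM (others 0.386 to 1.34 CPM) and Mup11 at 2.98 CPM (others 55 to 223 CPM). In high-dose zalfermin mouse 3 this was Rgs5 at 12.1 CPM (others 30.7 to 39.2 CPM). In DIO-MASH vehicle mouse 2 this was Mcm5 at 28.6 CPM (others 9.05 to 14.6 CPM) and Mcm6 at 47.7 CPM (others 16.8 to 25.4 CPM). In high-dose zalfermin mouse 1 this was F7 at 152 CPM (others 105 to 125 CPM).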

How the results depend on the processing

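Genes changed by high-dose zalfermin numbered 2429 in the reported fit, 2633 in DESeq2 (2396 of them shared), 2428 with DESeq2 size factors, 2237 and 2421 with the looser and the stricter filter, 2456 with the series term, 2903 with only both groups fitted, 2596 without low-dose semaglutide mouse 6, and 2036 to 2350 with 1 mouse left out. Against low-dose zalfermin, 260 genes became 109 to 494 with 1 mouse left out. Against high-dose semaglutide, 63 genes became 143 in DESeq2, 119 without low-dose semaglutide mouse 6, and 25 to 119 with 1 mouse left out. The cause was not tested. With 1 mouse left out, 24 to 25 of 27 urea cycle and amino acid genes rose, 16 to 17 of 20 collagens and 19 to 23 of 25 cell cycle genes fell, 8 to 11 of 16 lipid droplet genes fell, and 10 to 18 of 47 oxidative phosphorylation genes rose. The 30 largest rises and falls kept their direction and call in all 23 alternatives. They were chosen as called genes with large changes and no overlap, so this is not an independent test of them. Of 148 genes followed singly against DIO-MASH vehicle, 23 lost the call in 1 or more, among them Cyp8b1, Mup11 and Trem2 (12 each) and Fgf21 and Nfil3 (10 each). Of 10 genes named against high-dose semaglutide 5 lost the call in 6 to 13 alternatives, and of 10 against low-dose zalfermin 5 did so in 1 to 9. Gpt2, which did not pass, moved from -0.0476 to between -0.112 and 0.0315 with 1 mouse left out, and was above 0 without vehicle mouse 6. No paired analysis was possible because the labels carry no replicate numbers shared by the groups. Depth limits genes near 1 CPM, which rest on few reads per mouse.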

Other observations

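Of 18 genes of glucose and glycogen metabolism 7 rose, none fell and all 18 had positive log2 fold changes, with a median of 0.32. With 1 mouse left out 4 to 6 of them rose, the lowest number without vehicle mouse 8. Fbp1, an enzyme of glucose production, stood at 928, 1091 and 1216 CPM in DIO-MASH vehicle mice and at 1219.5, 1564 and 1906 CPM in high-dose zalfermin mice, without overlap (log2 fold change 0.48, SE 0.09, adjusted p = 6.26e-05). Pklr, of the last step of glucose breakdown, did not pass the test, with a log2 fold change of 0.09. Of 15 iron handling genes 3 rose and none fell, while 8.54% of all genes rose and 17.2% were called in either direction. Hamp, the iron hormone hepcidin, stood at 45.4, 166 and 398 CPM in vehicle mice and at 338, 465 and 841 CPM in treated mice (log2 fold change 1.39, SE 0.47, adjusted p = 0.0302), and the groups overlapped. Its call was lost in 5 of the 23 alternative fits. Of 18 clock genes 4 rose, while 8.54% of all genes rose and 17.2% were called in either direction. With 1 mouse left out 1 to 4 of the clock genes rose. None fell and 14 had positive log2 fold changes, Per1 by 0.54 (SE 0.18) and Nfil3 by 0.74 (SE 0.26), while Arntl and Nr1d1, of the core loop, had values of 0.31 and 0.02 without passing. The hour at which livers were collected was not in the labels.

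Of 18 transcription factors of hepatocytes 4 rose (2 without vehicle mouse 8) and none fell, namely Hnf4a, Rxra, Thrb and Foxa3, with log2 fold changes of 0.64, 0.32, 0.47 and 0.56. Of all genes tested, 8.54% rose and 17.2% were called in either direction. Cebpa and Foxa2 did not pass (0.13 and 0.14). Of 3 intestine and gallbladder genes tested none passed, and Fabp2 had a log2 fold change of -0.34. Of the exocrine pancreas genes, Cela2a was tested and did not pass (1.49).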
